A study of Mus musculus with 15 samples.

Results

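A set of 10 genes of the liver's non-collagen matrix was described across the mouse livers: the small leucine-rich proteoglycans Dcn (decorin), Lum (lumican) and Bgn (biglycan), the adhesive glycoproteins Fn1 (fibronectin) and Tgfbi, the elastic fibre components Fbn1 (fibrillin 1) and Eln (elastin), and the matricellular proteins Thbs1 and Thbs2 (thrombospondins) and Postn (periostin). They were taken by gene symbol from the deposited tables, and all 10 were found among the 26839 genes listed there.

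Livers came from male C57BL/6J mice, and RNA was sequenced in 15 libraries, 3 in each of 5 groups. The sample time was 16 weeks in all groups, which is not read here as age or as time on the diet. All groups carried an adeno-associated virus of serotype 8 (AAV8). The chow GFP group received AAV8 with green fluorescent protein (GFP) under the thyroxine binding globulin (TBG) promoter, which is active in hepatocytes, and was kept on standard chow and normal water. The other 4 groups ate a FPC NASH diet, which produces non-alcoholic steatohepatitis (NASH), and drank sugar water. Of these, the NASH GFP group carried AAV8-TBG-GFP, the Activin A group carried AAV8-TBG with Activin A, the scramble group carried AAV8-H1 with a scrambled hairpin, and the Gpnmb hairpin group carried AAV8-H1 with a short hairpin RNA against Gpnmb. Activin A, a dimer of the Inhba product, is secreted and belongs to the family of transforming growth factor beta (TGF-beta), and Gpnmb is a transmembrane glycoprotein found on macrophages among other cells. The H1 promoter is not restricted to 1 cell type. The labels do not state that the 3 libraries of each group are from different animals, and each p-value reflects only the spread among the libraries, which may be technical.

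As background, small leucine-rich proteoglycans bind collagen fibrils and shape their spacing and diameter, and decorin and biglycan also bind TGF-beta. Fibrillin microfibrils form the scaffold on which elastin is laid down and hold latent TGF-beta complexes. Matricellular proteins such as thrombospondins and periostin are secreted into the matrix but act mainly on cells and growth factors. In liver most of these genes are made by stellate cells and portal fibroblasts and rise in fibrosis, while fibronectin is also a major secretory product of hepatocytes, which release it into plasma.

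Promoter sequence was available for 5 of the 10 genes (Bgn, Thbs2, Tgfbi, Fbn1 and Postn) in the RefSeq table of GRCm38.p6. The 3 below are shown because they lie wholly outside the annotated gene and belong to genes that rose on the diet. For Postn, the listed start nearer the annotated gene was taken. Each line gives the 250 bases before the start site, 5′ to 3′ on the gene's strand, with motif matches in capitals. Thbs2 is read from the minus strand of chr17:14694263-14694512, Postn from the plus strand of chr3:54360857-54361106 (the second of its 2 listed starts) and Bgn from the plus strand of chrX:73483351-73483600.
Thbs2: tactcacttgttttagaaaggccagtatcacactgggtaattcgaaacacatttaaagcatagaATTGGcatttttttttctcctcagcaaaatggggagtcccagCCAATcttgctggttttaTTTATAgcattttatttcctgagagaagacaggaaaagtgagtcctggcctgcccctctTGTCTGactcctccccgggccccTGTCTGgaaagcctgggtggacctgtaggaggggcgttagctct
Postn: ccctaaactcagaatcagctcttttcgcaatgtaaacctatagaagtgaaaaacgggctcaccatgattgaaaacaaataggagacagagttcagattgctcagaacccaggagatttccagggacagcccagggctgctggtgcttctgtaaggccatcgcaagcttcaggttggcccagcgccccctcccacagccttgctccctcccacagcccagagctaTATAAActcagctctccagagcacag
Bgn: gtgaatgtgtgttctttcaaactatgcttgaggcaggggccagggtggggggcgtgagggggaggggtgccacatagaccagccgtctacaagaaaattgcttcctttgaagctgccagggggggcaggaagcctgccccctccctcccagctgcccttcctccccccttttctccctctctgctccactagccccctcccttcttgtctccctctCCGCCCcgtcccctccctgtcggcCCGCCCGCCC
Motifs were searched on both strands. In Thbs2 the capitals mark CAGACA at -67 and -44, CCAAT at -186 and -144 and TATAAA at -126, counted as the distance of the first base of the match from the start site. In Postn they mark TATAAA at -26. In Bgn they mark GGGCGG at -34, -10 and -6, the last 2 of them overlapping. The window of the other Postn start (chr3:54359017-54359266), also outside the gene, held no match to any motif searched. Among 32851 promoters of the same length, CAGACA occurred in 17.1%, CCAAT in 33.8%, TATAAA in 12.4% and GGGCGG in 32.7%. The letters TGANTCA of AP-1 (6.75% of promoters), GGAATG of TEAD factors (12.6%), the decamer of NF-kB (0.140%) and the CArG box (1.47%) were not in the windows of these 3 genes.

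On GRCm38 the Dcn gene (ENSMUSG00000019929) lies at chr10:97479609-97518143 and Lum (ENSMUSG00000036446) at chr10:97565128-97572703 on the same strand, 46984 bases apart. Bgn (ENSMUSG00000031375) lies at chrX:73483602-73495933, Fn1 (ENSMUSG00000026193) at chr1:71585520-71653200 and Tgfbi (ENSMUSG00000035493) at chr13:56609523-56639562. Fbn1 (ENSMUSG00000027204) lies at chr2:125300594-125507993, Thbs1 (ENSMUSG00000040152) at chr2:118111876-118127133 and Thbs2 (ENSMUSG00000023885) at chr17:14665500-14694235. Eln (ENSMUSG00000029675) lies at chr5:134702593-134747323 and Postn (ENSMUSG00000027750) at chr3:54361109-54391037. All are protein-coding. Exons of Fn1, Thbs1, Fbn1 and Eln share 208 to 2442 bases with a gene on the opposite strand, and the strand setting of the counting is not given. The 2 partners present in the tables, Apol7d beside Fn1 and Gm9913 beside Fbn1, held 67 and 2 counts over all 15 libraries.

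Libraries held 15276879 to 23467867 counts, of which albumin took 4.53% to 6.70%. Levels are given as CPM, counts scaled to a common library total after that total was adjusted by trimmed mean scaling over all libraries. The targeted gene, Gpnmb, had a mean of 31.8 CPM with the scramble against 2.01 CPM with the hairpin, a log2 fold change of -3.95 ± 0.26 (SE; edgeR adjusted p = 1.15e-05). Inhba was higher in Activin A than in NASH GFP livers (1.63 ± 0.11, edgeR adjusted p = 0.000192). Gpnmb was also lower in Activin A than in NASH GFP livers (-2.93 ± 0.27, edgeR adjusted p = 0.000731). Inhba was also higher in Gpnmb hairpin than in scramble livers (0.92 ± 0.17, edgeR adjusted p = 0.00325).

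Levels of the 10 genes spanned more than 2 orders of magnitude within each group. Per length, in CPM per kilobase of gene model (RPKM), the order of mean levels in scramble livers ran from Fn1 at 134 over Dcn at 35.7, Bgn at 25.8, Tgfbi at 18.3, Lum at 7.21 and Postn at 2.90 to Thbs1 at 1.34, Thbs2 at 1.24, Eln at 1.01 and Fbn1 at 0.955. The first 6 genes kept this order in all 5 groups, by group means. The ratio of the highest to the lowest of the 10 RPKM means was 455 in chow livers and 144 in NASH GFP livers. The least counted of the 10 was Thbs1, with 14 to 30 counts per chow library and 102 to 221 per NASH GFP library, so counting error is largest there. Bulk liver RNA cannot tell fewer cells of a type from less RNA per cell, and this holds for every level below.

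Chow GFP livers had the lowest mean of the 5 groups for 9 of the 10 genes. The exception was Fn1, whose lowest mean was in NASH GFP livers and whose highest was in Gpnmb hairpin livers. The highest mean lay in NASH GFP livers for Dcn, Lum, Thbs2 and Eln and in scramble livers for Bgn, Thbs1, Tgfbi, Fbn1 and Postn. The highest group mean was 5.04 times the lowest for Thbs1, the widest span, followed by Postn. It was 3.73 times for Thbs2, 3.42 times for Lum, 3.39 times for Fbn1 and 2.97 times for Eln. It was 2.06 times the lowest for Bgn, 1.89 times for Dcn, 1.85 times for Tgfbi and 1.68 times for Fn1. Most neighbouring groups in these orders overlapped. For Thbs1, Fbn1 and Eln all 4 pairs of neighbours overlapped, while for Dcn and Lum 3 of the 4 pairs did not.

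**Figure D1:**
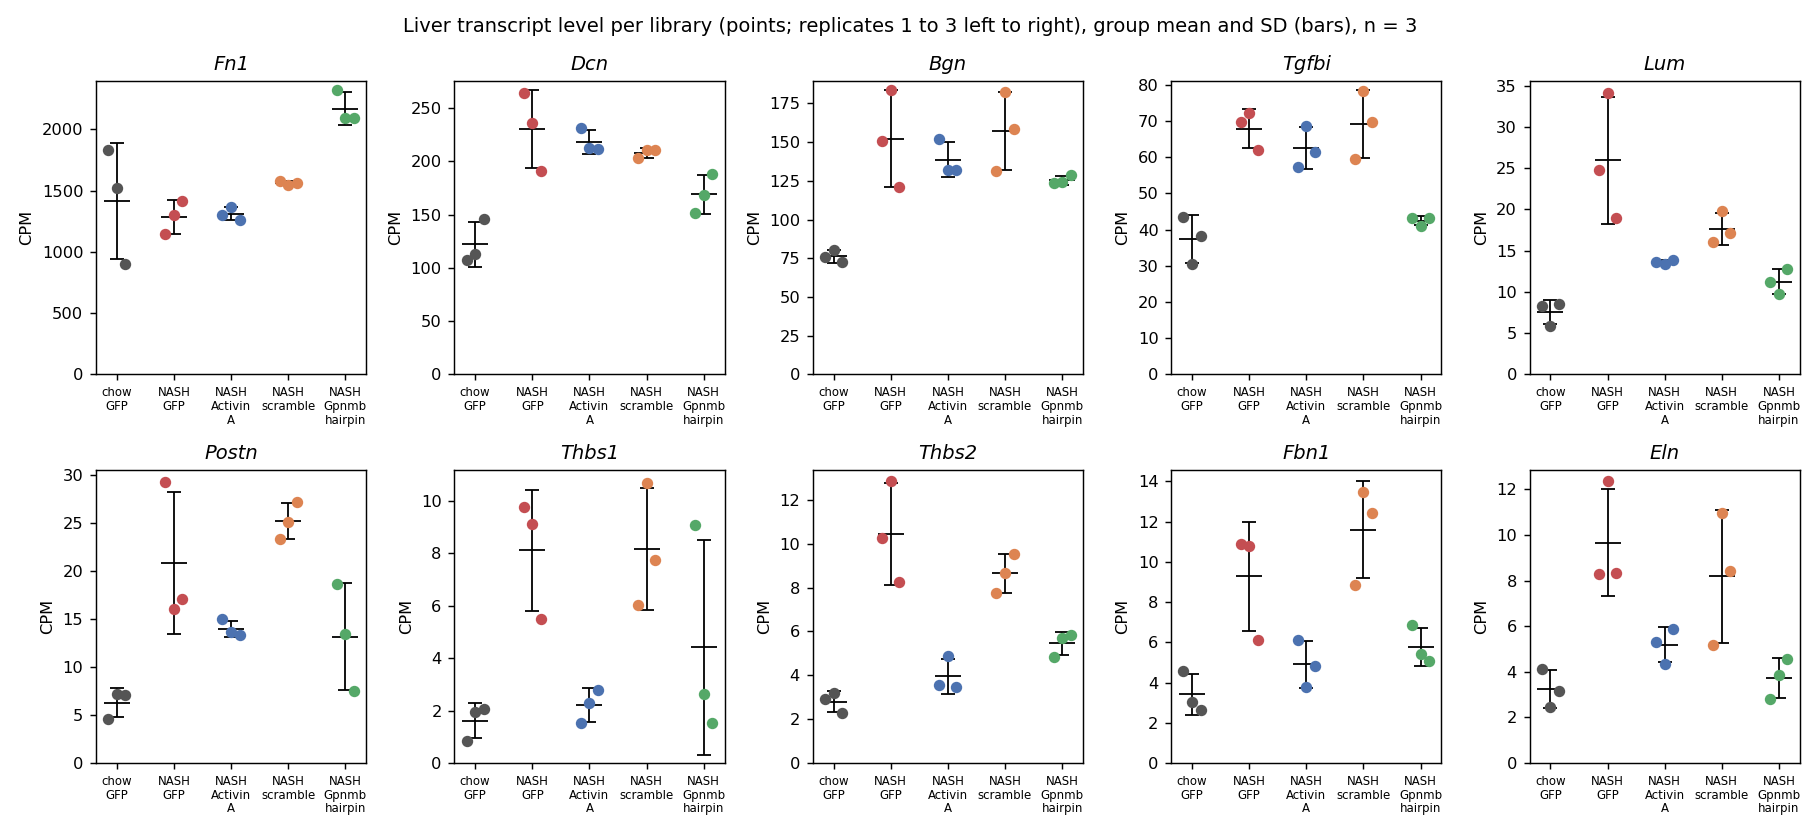
Level of each gene in CPM (y axis, linear from 0) in the 15 libraries; points are libraries, and horizontal marks with bars give the group mean and SD (n = 3). Of the genes shown, 9 are lowest in chow livers, and Fn1 is highest in the Gpnmb hairpin livers, at 2090 to 2323 CPM.

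For most of the 10 genes the same library was lowest in the scramble group, and likewise in the NASH GFP group. No library of the other groups was lowest for more than 4 genes. Such counts were not made over all genes. In the scramble group, replicate 1 was the lowest of the 3 libraries for 9 of the 10 genes, Fn1 being the exception, and in the NASH GFP group replicate 3 was lowest for 7. The summed level of 9 myofibroblast marker genes was also lowest in these libraries: 207 CPM in scramble replicate 1 against 281 and 342 CPM, and 178 CPM in NASH GFP replicate 3 against 311 and 333 CPM. This was not particular to myofibroblast markers. Macrophage and monocyte markers (393 and 447 CPM) and portal fibroblast markers (79.0 and 95.5 CPM) were also lowest there. Hepatocyte markers were highest there, at 68448 and 67896 CPM. Stellate cell markers were lowest in scramble replicate 1 but not in NASH GFP replicate 3. The part of such marker levels in the results below was not tested.

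The first comparison asked what the NASH diet with sugar water does under the GFP vector. Of the 10 matrix genes 9 rose and none fell, where 17.0% of all 14388 tested genes were called (11.2% higher and 5.82% lower, edgeR quasi-likelihood test, Benjamini-Hochberg adjusted p under 0.05). The 10 genes had a median log2 fold change of 1.54, against -0.01 over all genes tested. Fn1 alone was not called. For all 9 called genes the NASH GFP and chow libraries did not overlap, as for 35.0% of all genes (20.3% wholly higher).

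Among the proteoglycans, Dcn stood at 107, 113 and 146 CPM in the chow libraries and at 264, 236 and 192 CPM in the NASH GFP libraries (log2 fold change 0.96 ± 0.18 (SE, n = 3 per group), edgeR adjusted p = 0.00519). Bgn stood at 75.8, 80.2 and 72.4 CPM on chow and at 151, 184 and 121 CPM on the NASH diet (1.04 ± 0.17, edgeR adjusted p = 0.00301). Lum, a keratan sulfate proteoglycan of collagen fibrils, stood at 8.33, 5.89 and 8.55 CPM on chow and at 24.8, 34.2 and 18.9 CPM on the NASH diet (1.81 ± 0.24, edgeR adjusted p = 0.000957). Every NASH GFP library lay above every chow library for these 3 genes.

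The neighbours Dcn and Lum differed in the size of the rise. The per-length ratio of Lum to Dcn was 0.124 to 0.186 in chow libraries and 0.224 to 0.345 in NASH GFP libraries, which did not overlap. It was 0.141 to 0.156 in Activin A, 0.188 to 0.224 in scramble and 0.139 to 0.176 in Gpnmb hairpin libraries. Both vector controls on the NASH diet thus lay above all chow libraries, the scramble group only narrowly (0.188 against 0.186). The Activin A and Gpnmb hairpin libraries lay within the chow range. The ratios of Bgn to Dcn, Thbs2 to Thbs1 and Eln to Fbn1 overlapped between chow and NASH GFP libraries. None of these ratios was tested.

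Of the elastic fibre genes, Fbn1 stood at 4.56, 3.06 and 2.62 CPM in chow libraries and at 10.9, 10.8 and 6.14 CPM in NASH GFP libraries (1.47 ± 0.31, edgeR adjusted p = 0.00980). Eln, the core protein of elastic fibres, stood at 4.13, 2.46 and 3.17 CPM on chow and at 8.29, 12.4 and 8.34 CPM on the NASH diet (1.60 ± 0.28, edgeR adjusted p = 0.00347). Replicate 3 of the NASH GFP group gave the lowest Fbn1 value on the diet and still lay above all chow libraries.

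The matricellular genes also rose. Thbs1, whose protein can activate latent TGF-beta, stood at 0.851, 1.94 and 2.07 CPM on chow and at 9.75, 9.10 and 5.49 CPM on the NASH diet (2.38 ± 0.37, edgeR adjusted p = 0.00205). Thbs2, its relative, stood at 2.92, 3.21 and 2.28 CPM on chow and at 10.2, 12.8 and 8.23 CPM on the NASH diet (1.93 ± 0.26, edgeR adjusted p = 0.000987). Postn, which binds collagen and integrins, stood at 4.56, 7.23 and 7.11 CPM on chow and at 29.3, 16.1 and 17.1 CPM on the NASH diet (1.77 ± 0.28, edgeR adjusted p = 0.00212). For Postn, replicate 1 was far above the other 2 NASH GFP libraries.

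Tgfbi, a TGF-beta-induced adhesion protein, stood at 43.6, 30.4 and 38.3 CPM on chow and at 69.6, 72.1 and 61.9 CPM on the NASH diet (0.90 ± 0.16, edgeR adjusted p = 0.00429). Fn1 stood at 1831, 1520 and 902 CPM on chow and at 1142, 1301 and 1418 CPM on the NASH diet (-0.11 ± 0.25, edgeR adjusted p = 0.821). The chow libraries spread over a wider range than the NASH GFP libraries and enclosed them. All 9 calls held in each alternative analysis and without each library in turn.

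The next comparison asked what hepatocyte Activin A does on the NASH diet. Of the 10 genes 4 fell (Lum, Thbs1, Thbs2 and Eln) and none rose, against 5.52% of 14598 tested genes called (1.66% higher and 3.86% lower). The median log2 fold change of the 10 was -0.75, against 0.00 over all genes. The 6 genes whose Activin A libraries all lay below all NASH GFP libraries were these 4 with Fbn1 and Postn. Of all genes 25.9% did not overlap, and 13.5% lay wholly lower.

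Thbs1 stood at 1.53, 2.29 and 2.80 CPM in Activin A libraries, against at least 5.49 CPM in each NASH GFP library (-1.90 ± 0.30, edgeR adjusted p = 0.00745). Thbs2 stood at 3.55, 4.88 and 3.46 CPM, below the lowest NASH GFP value of 8.23 CPM (-1.41 ± 0.23, edgeR adjusted p = 0.00770). The Thbs1 values overlapped those of chow livers, and the Thbs2 values lay just above them. Postn stood at 15.0, 13.7 and 13.4 CPM and did not pass the test (-0.59 ± 0.22, edgeR adjusted p = 0.160).

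Lum stood at 13.6, 13.4 and 13.9 CPM in the Activin A libraries, between the chow and the NASH GFP ranges (-0.95 ± 0.19, edgeR adjusted p = 0.0217). The other 2 proteoglycans gave no call: Dcn stood at 231, 212 and 212 CPM (-0.09 ± 0.13, edgeR adjusted p = 0.767) and Bgn at 152, 132 and 132 CPM (-0.15 ± 0.15, edgeR adjusted p = 0.656). Their Activin A libraries lay inside the NASH GFP range and above every chow library.

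Eln stood at 5.29, 4.36 and 5.90 CPM (-0.91 ± 0.22, edgeR adjusted p = 0.0398), and Fbn1 at 6.11, 3.79 and 4.80 CPM (-0.94 ± 0.27, edgeR adjusted p = 0.0753). These elastic fibre genes thus had nearly the same fold change on either side of the threshold. Fbn1 passed it with DESeq2 (adjusted p = 0.0135), with no filter on low counts (0.0144), with all 15 libraries in the fit (0.0405) and without NASH GFP replicate 3 (0.00779). Eln missed it with limma-voom (adjusted p = 0.0576), with all 15 libraries (0.0545) and without 5 of the 6 libraries taken singly.

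Tgfbi stood at 57.3, 68.7 and 61.5 CPM (-0.13 ± 0.11, edgeR adjusted p = 0.558) and Fn1 at 1303, 1366 and 1260 CPM (0.01 ± 0.11, edgeR adjusted p = 0.976), both within or overlapping the NASH GFP range. Only the fall of Thbs1 held in every alternative. The fall of Lum missed the threshold without any 1 of the Activin A libraries (adjusted p 0.0872 to 0.0985), and that of Thbs2 without Activin A replicate 3 (0.0531). The number of genes called was 2 without Activin A replicate 1 or replicate 2 and 1 without replicate 3.

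The comparison of the Gpnmb hairpin with the scramble asked what lowering Gpnmb does on the NASH diet. Of the 10 genes 7 fell (Dcn, Lum, Thbs2, Tgfbi, Fbn1, Eln and Postn) and Fn1 rose, against 24.3% of 14845 tested genes called (12.2% higher and 12.0% lower). The median log2 fold change of the 10 was -0.66, against 0.00 over all genes. Hairpin and scramble libraries did not overlap for 9 genes, Thbs1 being the exception, where 40.8% of all genes did not overlap.

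Tgfbi fell with the smallest p of the 10, from 59.4, 78.3 and 69.8 CPM in scramble libraries to 43.1, 41.0 and 43.2 CPM in hairpin libraries (-0.68 ± 0.10, edgeR adjusted p = 0.000870). Those hairpin values reached into the chow range of 30.4 to 43.6 CPM. Fn1 moved the other way, from 1576, 1549 and 1560 CPM to 2323, 2090 and 2091 CPM (0.50 ± 0.08, edgeR adjusted p = 0.00148). Every hairpin library was above every other library of the series for Fn1, the chow libraries included. The Fn1 rise missed the threshold with all 15 libraries in the fit (adjusted p = 0.0750).

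The elastic fibre genes fell by a similar amount. Fbn1 went from 8.87, 13.4 and 12.4 CPM in scramble to 6.85, 5.42 and 5.08 CPM in hairpin libraries (-0.98 ± 0.19, edgeR adjusted p = 0.00413). Eln went from 5.16, 11.0 and 8.44 CPM to 2.79, 3.84 and 4.54 CPM (-1.11 ± 0.28, edgeR adjusted p = 0.0155). Eln in hairpin libraries overlapped the chow range, and Fbn1 lay above it.

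Lum fell from 16.0, 19.8 and 17.1 CPM to 11.2, 9.78 and 12.8 CPM (-0.62 ± 0.13, edgeR adjusted p = 0.00623). Dcn fell less, from 203, 211 and 211 CPM to 152, 168 and 188 CPM (-0.27 ± 0.08, edgeR adjusted p = 0.0335). Bgn stood at 131, 182 and 158 CPM in scramble and 123, 124 and 129 CPM in hairpin libraries (-0.30 ± 0.10, edgeR adjusted p = 0.0571). Dcn and Bgn thus had similar fold changes on either side of the threshold, and all 3 proteoglycans stayed above the chow libraries.

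Thbs2 fell from 7.77, 8.64 and 9.55 CPM to 4.85, 5.68 and 5.84 CPM (-0.64 ± 0.16, edgeR adjusted p = 0.0134), and Postn from 23.3, 25.1 and 27.1 CPM to 18.6, 13.4 and 7.46 CPM (-0.92 ± 0.24, edgeR adjusted p = 0.0177). Thbs1 stood at 6.04, 10.7 and 7.76 CPM in scramble libraries and at 9.09, 2.63 and 1.51 CPM in hairpin libraries (-0.88 ± 0.49, edgeR adjusted p = 0.223). Hairpin replicate 1 lay within the scramble range for Thbs1 and the other 2 hairpin libraries below it. Without that library the Thbs1 fold change was -1.95 (adjusted p = 0.00236).

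The calls on Lum, Tgfbi and Fbn1 held in every alternative. Dcn missed the threshold with all 15 libraries in the fit (adjusted p = 0.209) and without 5 of the 6 libraries taken singly, and Postn missed it with DESeq2 (0.0571). Taking out single libraries, Eln missed the threshold in 3 of 6 cases (hairpin replicate 2 and scramble replicates 2 and 3, adjusted p 0.0518 to 0.0681). Postn missed it without hairpin replicate 2 (0.0587) and without scramble replicate 3 (0.0689), and Thbs2 without scramble replicate 3 (0.0844). The number of genes called was 5 without hairpin replicate 2 and 4 without scramble replicate 3. Bgn passed with DESeq2 (adjusted p = 0.0321), with no filter on low counts (0.0150), with scaling by library size alone (0.0291) and without scramble replicate 1 (0.00617).

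**Figure D2:**
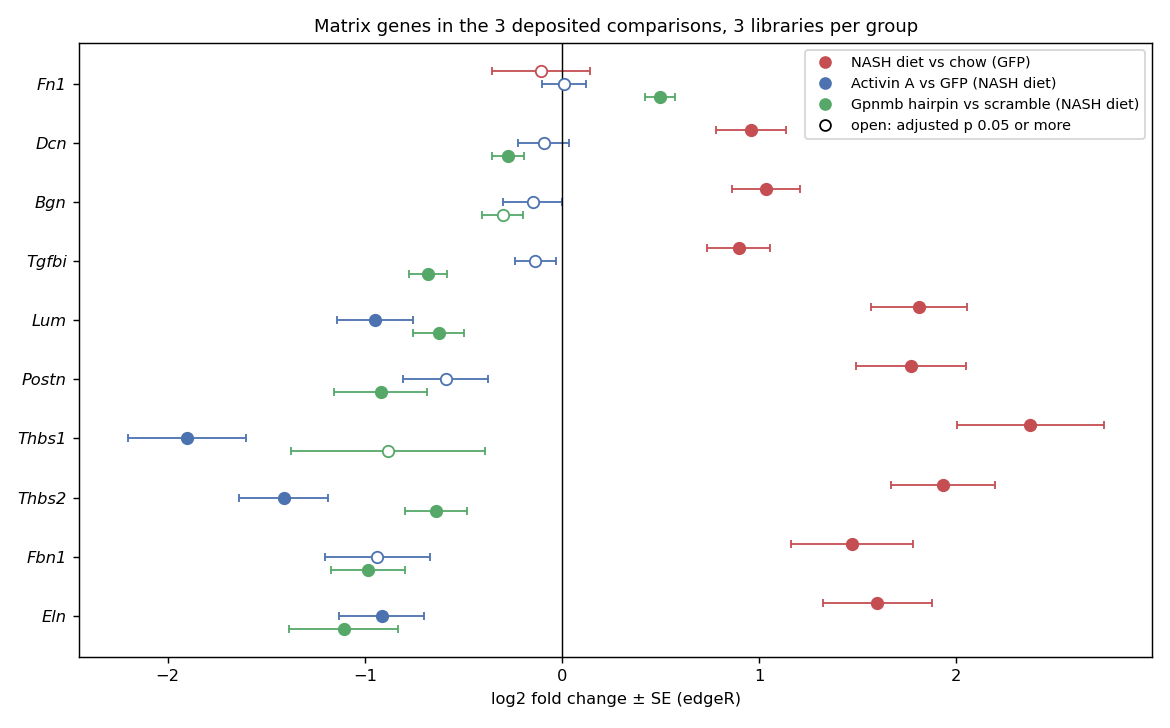
Log2 fold change (x axis) with its SE (bars) for each gene in the diet, Activin A and Gpnmb hairpin comparisons, 3 libraries per group; filled points passed an adjusted p of 0.05. On the diet 9 genes are right of 0, and Fn1 alone is clearly right of 0 for the hairpin, at 0.50.

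The choice of scaling moved the balance of calls over all genes. Of the genes called on the diet, 65.7% were higher with trimmed mean scaling and 86.8% with scaling by library size alone. For Activin A the shares were 30.0% and 20.4%, and for the hairpin 50.3% and 29.0%. The median of all genes shifted to 0.24 on the diet and to -0.11 for the hairpin under library size alone. No called gene among the 10 changed direction with the scaling.

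The 2 NASH diet controls, which differ in vector (H1 scramble against TBG GFP), were also compared, with all 15 libraries in the fit. None of the 10 genes was called by edgeR, nor by DESeq2 or limma-voom, where edgeR called 0.741% of 15665 genes. At an unadjusted p under 0.05 edgeR gave 1 gene, Lum, which was lower in scramble livers (-0.59 ± 0.18, edgeR adjusted p = 0.129). Without NASH GFP replicate 3 Lum passed (-0.77, adjusted p = 0.0136). The largest SE in this comparison was that of Thbs1, at -0.02 ± 0.44, so a sizeable difference between controls would have gone undetected for that gene.

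Each NASH diet group was then set against the chow GFP livers, which these comparisons share with each other and with the diet comparison. Scramble and Gpnmb hairpin livers differ from chow GFP livers in vector (H1 against TBG GFP) as well as in diet. Activin A livers differ from them in transgene as well as in diet. The parts of diet and vector cannot be told apart in these comparisons. Scramble livers were higher than chow livers for 9 genes, where edgeR called 34.3% of 15665 genes (17.0% higher). Fn1 was again not called (0.11 ± 0.18, edgeR adjusted p = 0.653). Postn was higher by 1.98 ± 0.28, Fbn1 by 1.73 ± 0.27, Thbs2 by 1.60 ± 0.22 and Thbs1 by 2.32 ± 0.52 on the log2 scale. All 9 calls held in every alternative.

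Activin A livers were higher than chow livers for 5 genes, where 23.7% of genes were called (11.8% higher). These were Dcn (0.83 ± 0.13, edgeR adjusted p = 0.000236), Lum (0.83 ± 0.20, 0.00548), Bgn (0.85 ± 0.14, 0.000296), Tgfbi (0.73 ± 0.13, 0.000560) and Postn (1.15 ± 0.29, 0.00760). The thrombospondin and elastic fibre genes did not pass: Thbs1 stood at 0.45 ± 0.56, Thbs2 at 0.49 ± 0.22, Fbn1 at 0.50 ± 0.28 and Eln at 0.65 ± 0.29, with edgeR adjusted p-values of 0.614, 0.127, 0.212 and 0.118. Thus all 3 proteoglycans and Tgfbi remained above chow in Activin A livers. Activin A libraries lay above every chow library for 7 genes, the 5 called genes with Thbs2 and Eln, where 18.5% of all genes did so. The 5 calls held in every alternative. With scaling by library size alone Thbs2 (edgeR adjusted p = 0.0322) and Eln (0.0430) passed as well. Without chow replicate 3 Fn1 passed as lower (-0.37, edgeR adjusted p = 0.0247).

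Gpnmb hairpin livers were higher than chow livers for 6 genes, where 25.9% of genes were called (12.2% higher). These were Bgn (0.72 ± 0.14, edgeR adjusted p = 0.00123), Thbs2 (0.97 ± 0.22, 0.00380), Postn (1.07 ± 0.29, 0.0113), Dcn (0.48 ± 0.13, 0.0146), Fn1 (0.62 ± 0.18, 0.0166) and Lum (0.57 ± 0.20, 0.0440). Tgfbi at 0.18 ± 0.13 and Eln at 0.19 ± 0.30 were closest to chow (edgeR adjusted p = 0.321 and 0.675). Thbs1 at 1.45 ± 0.53 and Fbn1 at 0.75 ± 0.28 narrowly missed the threshold (edgeR adjusted p = 0.0544 and 0.0557). Only the calls on Bgn and Thbs2 held in every alternative, and 3 genes were called without hairpin replicate 1.

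**Figure D3:**
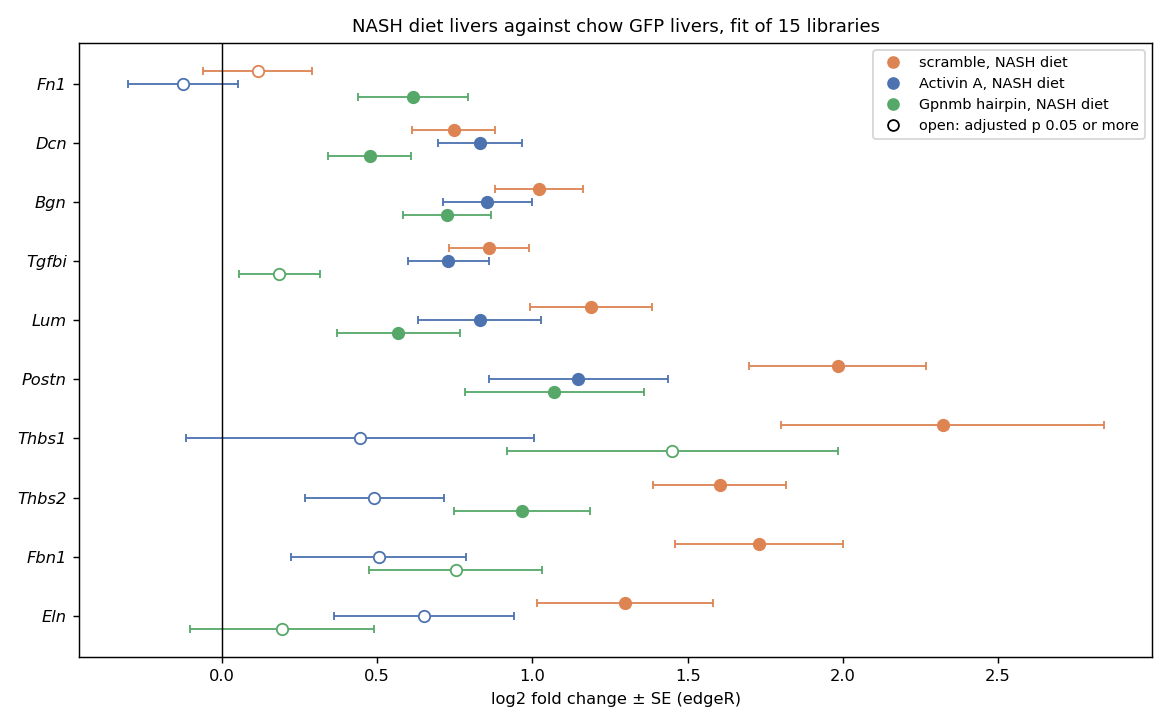
Log2 fold change against chow GFP livers (x axis) with its SE (bars), from a fit of 15 libraries, for scramble, Activin A and Gpnmb hairpin livers on the NASH diet; filled points passed an adjusted p of 0.05. Tgfbi lies at 0.73 in Activin A livers and at 0.18 in hairpin livers.

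Whether Activin A and the hairpin moved these genes by different amounts, each against its own vector control, was tested as a difference of the 2 log2 fold changes. By edgeR, DESeq2 and limma-voom none of the 10 genes was called, where edgeR called 4.04% of 15665 genes (1.90% with a higher and 2.14% with a lower difference). At an unadjusted p under 0.05 edgeR gave 2 genes, Tgfbi (Activin A minus hairpin effect 0.54 ± 0.18, edgeR adjusted p = 0.114) and Thbs2 (-0.78 ± 0.29, edgeR adjusted p = 0.158). With only the 4 groups concerned in the fit, 2 genes passed: Tgfbi (0.56, adjusted p = 0.0345) and Fn1 (-0.47, adjusted p = 0.0451). The SE of the other differences ran up to 0.67 for Thbs1, so moderate differences in the low-count genes were not detectable here.

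Related genes were read from 7 lists that hold none of the 10, chosen with earlier results of these data known. The shares of all genes called, for reading these counts, were 11.2% higher and 5.82% lower on the diet, 1.66% higher and 3.86% lower under Activin A, and 12.2% higher and 12.0% lower under the hairpin. On the diet 13 of 21 other elastic fibre genes rose and none fell (median log2 fold change 1.16), among them the cross-linking enzyme gene Loxl2 (2.02 ± 0.30, edgeR adjusted p = 0.00156). Under Activin A 1 of 21, Loxl2, fell (-1.08 ± 0.25, edgeR adjusted p = 0.0381), with a list median of -0.32, a count near the share of all genes called lower. Under the hairpin 10 of 20 fell and none rose (median -0.69), with the smallest p for Adamts10, a protease of microfibrils (-0.82 ± 0.14, edgeR adjusted p = 0.00253).

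Of other proteoglycan genes, 6 of 19 rose and 3 fell on the diet. The cell-surface proteoglycan Gpc1 rose (2.61 ± 0.27, edgeR adjusted p = 0.000289), whereas Sdc2 (-0.85 ± 0.16), Sdc4 (-0.66 ± 0.18) and Gpc4 (-0.62 ± 0.14), also cell-surface heparan sulfate proteoglycans, fell. Under the hairpin 6 of 20 fell and 3 rose, and the 3 that rose were again Sdc4 (0.63 ± 0.09), Sdc2 (0.56 ± 0.11) and Gpc4 (0.44 ± 0.11), while Gpc1 fell (-0.99 ± 0.12). Under Activin A 3 of 21 rose, with the smallest p for Tsku (1.34 ± 0.21, edgeR adjusted p = 0.00721), and Sdc3 fell (-0.71 ± 0.16).

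Of other matricellular genes, 9 of 17 rose on the diet and Vtn, the hepatocyte plasma protein vitronectin, fell (-0.81 ± 0.17, edgeR adjusted p = 0.00873). Fstl1 rose by 1.51 ± 0.22. Under Activin A 3 of 17 fell, with the smallest p for Spp1, osteopontin (-2.19 ± 0.26, edgeR adjusted p = 0.00224), which is also a marker of biliary cells and of lipid-laden macrophages. Under the hairpin 6 of 17 fell, with the smallest p for Sparc (-1.07 ± 0.12, edgeR adjusted p = 0.000279), a collagen-binding protein. No member of this list rose under Activin A or the hairpin.

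Of 19 matrix receptor genes tested, 10 rose on the diet and 4 fell under each of Activin A and the hairpin, with none in the opposite direction. Cd36, a scavenger receptor for fatty acids that also binds thrombospondins, rose on the diet (2.79 ± 0.30, edgeR adjusted p = 0.000359) and fell under the hairpin (-0.62 ± 0.07, edgeR adjusted p = 0.000263). The hyaluronan receptor Cd44 fell under Activin A (-1.40 ± 0.17, edgeR adjusted p = 0.00214). Of 27 glycosaminoglycan synthesis genes, 6 rose on the diet, 1 fell under Activin A, and 4 fell and 2 rose under the hairpin. For Activin A and the hairpin these counts are near the shares of all genes called. Chst11, a chondroitin sulfotransferase, rose on the diet (3.86 ± 0.56) and fell under Activin A (-2.15 ± 0.48, edgeR adjusted p = 0.0334).

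Of 20 genes for TGF-beta ligands, receptors and targets, 10 rose on the diet and none fell. Under Activin A 3 rose and 2 fell. The 2 that fell were the ligands Tgfb1 (-0.76 ± 0.18, edgeR adjusted p = 0.0394) and Tgfb2 (-1.87 ± 0.32, edgeR adjusted p = 0.00975), and the repressor gene Ski rose (0.80 ± 0.09). Under the hairpin 6 fell, the receptor gene Tgfbr2 among them (-0.67 ± 0.13), and 4 rose: the signal transducers Smad3 (0.40 ± 0.09) and Smad4 (0.31 ± 0.08) and the repressors Skil (0.34 ± 0.10) and Tgif1 (0.28 ± 0.09).

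Of 17 genes for proteases of these matrix substrates, 13 rose and 1 fell on the diet. Mmp12, the elastase of macrophages, rose by 7.20 ± 0.34 (edgeR adjusted p = 6.02e-06), and Plg, the hepatocyte plasma protein plasminogen, fell (-0.86 ± 0.19). Under Activin A 6 fell, Mmp12 among them (-2.68 ± 0.19), and Htra3 rose (1.32 ± 0.17). Under the hairpin 4 fell, Mmp12 again (-2.91 ± 0.36), and Bmp1, Mmp14 and Plg rose by 0.29 ± 0.08, 0.36 ± 0.09 and 0.33 ± 0.09.

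**Figure D4:**
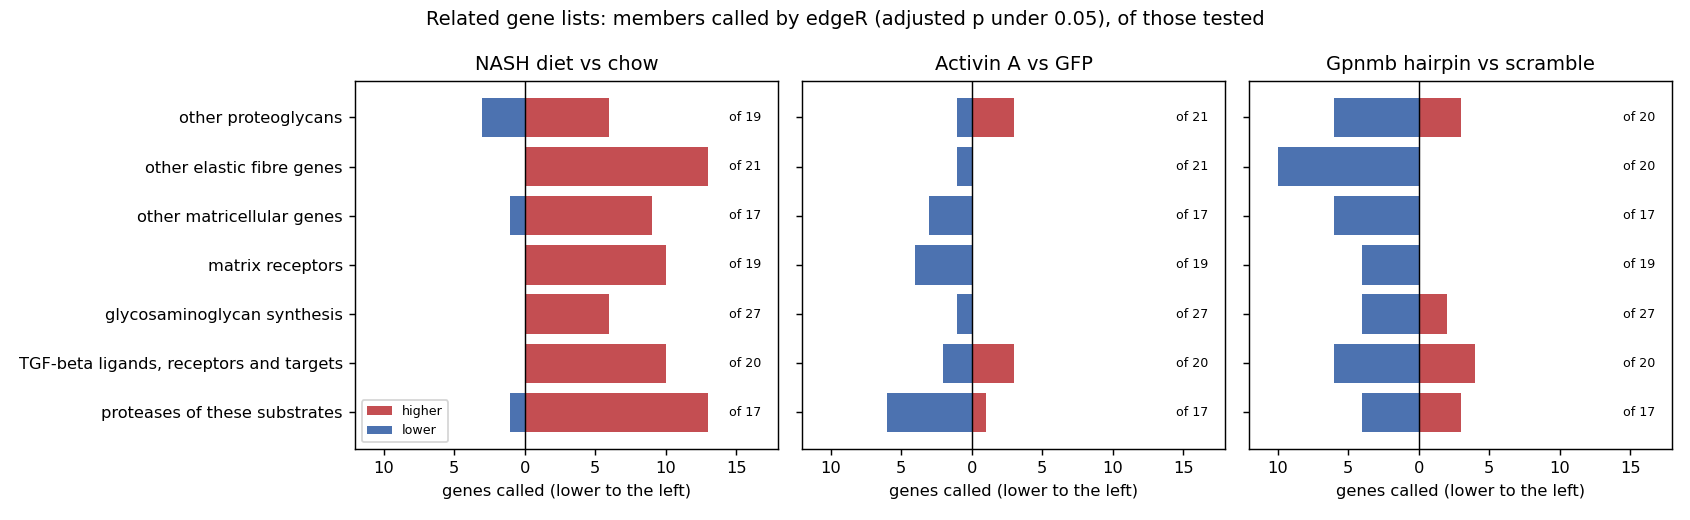
Number of genes called lower (left of 0) and higher (right of 0) by edgeR in 7 lists of related genes, for the diet, Activin A and the Gpnmb hairpin; the number tested stands at the right. The elastic fibre list has 13 of 21 higher on the diet and 10 of 20 lower under the hairpin.

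Markers of the cells that make these matrix genes were read beside them. Of 8 tested myofibroblast markers, 7 rose on the diet, 3 fell under Activin A and 6 fell under the hairpin. The myofibroblast list itself holds matrix genes (Col1a1, Col1a2, Col3a1 and Lox), so it is not a reading of cell type apart from matrix expression. The summed level of this list, over 9 genes, was 62.2 to 69.6 CPM in chow, 178 to 333 in NASH GFP and 114 to 115 in Activin A libraries. It was 207 to 342 in scramble and 79.4 to 133 in hairpin libraries, so neither intervention overlapped its control. Cthrc1 was not listed for the scramble and hairpin groups and was set to 0 there. Of the 10 stellate cell markers 6 rose on the diet, 1 fell under Activin A and 6 fell under the hairpin. Their sum was 216 to 281 CPM in chow, 353 to 405 in NASH GFP, 385 to 435 in Activin A, 434 to 445 in scramble and 375 to 388 in hairpin libraries. The Activin A and NASH GFP ranges of the stellate sum overlapped. The part of these cells in the matrix results was not tested.

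Portal fibroblast markers rose in 4 of 7 on the diet and fell in 1 of 7 under Activin A and 1 of 5 under the hairpin. Fbln2 is in this list and in the elastic fibre list, and Lox is in the myofibroblast and elastic fibre lists. The sum of the portal fibroblast markers was 43.1 to 48.3 CPM in chow, 95.5 to 148 in NASH GFP, 69.1 to 75.0 in Activin A, 79.0 to 121 in scramble and 61.4 to 76.1 in hairpin libraries. Of the macrophage and monocyte markers, all 7 tested rose on the diet, and 7 of 8 fell under Activin A and 7 of 8 under the hairpin. Their sum was 141 to 144 CPM in chow, 447 to 517 in NASH GFP, 168 to 193 in Activin A, 393 to 489 in scramble and 185 to 248 in hairpin libraries. The part of either cell type in the matrix results was not tested.

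Platelets carry Thbs1 protein. The platelet and megakaryocyte markers, summed over 5 listed genes, stood at 2.5 to 6.3 CPM over all 15 libraries. Thbs1 itself stood at 0.851 to 10.7 CPM. The platelet sum was 4.24 to 5.03 CPM in scramble and 2.54 to 3.79 CPM in hairpin libraries, which did not overlap. Neither of the 2 platelet markers tested was called in any of the 3 comparisons. The part of platelets in the Thbs1 results was not tested. Treml1 stood at 0 in chow and hairpin livers and Gp9 in hairpin livers. Hepatocyte markers bear on Fn1, which hepatocytes make. Of 8 hepatocyte markers 3 fell on the diet, 1 rose under Activin A and 5 rose under the hairpin, where Fn1 also rose. Their sum was 83337 to 115728 CPM in chow, 55084 to 67896 in NASH GFP, 72018 to 73228 in Activin A, 57137 to 68448 in scramble and 68967 to 74759 in hairpin libraries. The part of hepatocyte RNA share in the Fn1 result was not tested.

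**Figure D5:**
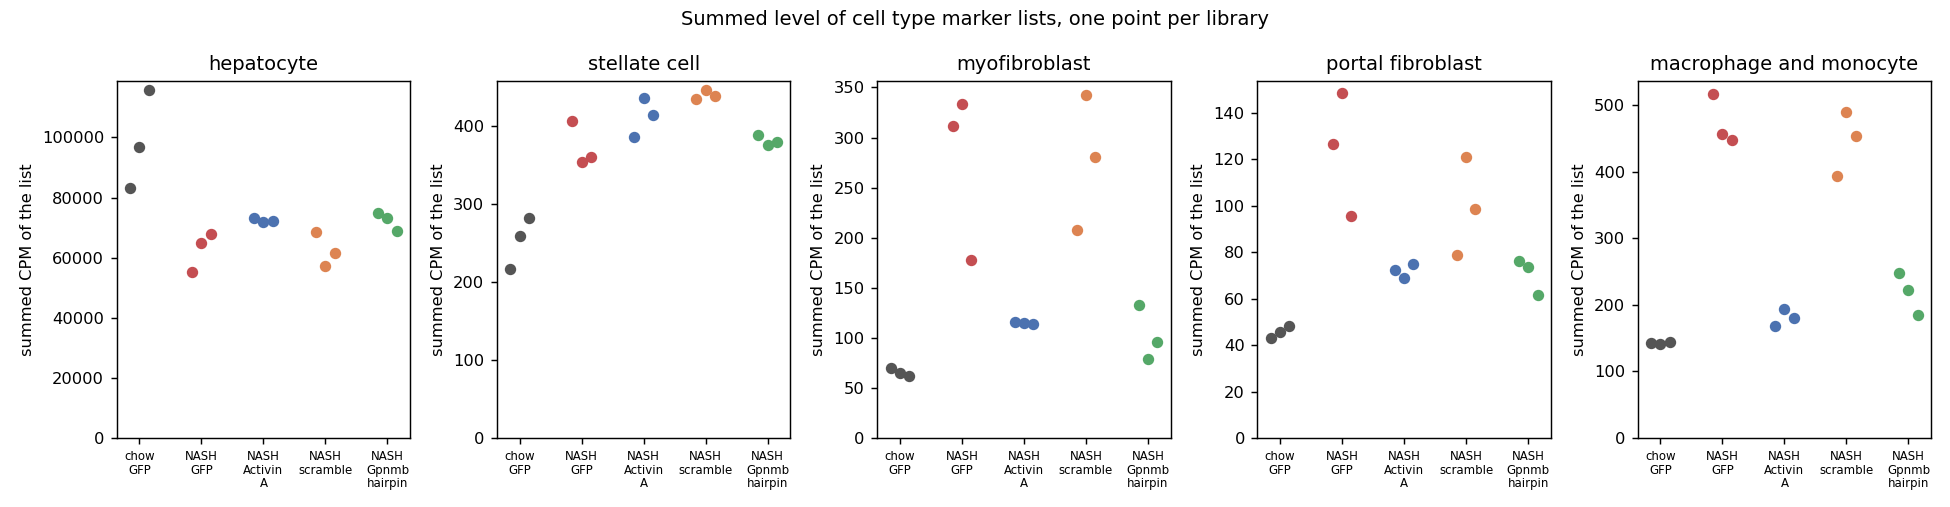
Summed CPM (y axis, linear from 0) of hepatocyte, stellate cell, myofibroblast, portal fibroblast and macrophage marker genes, 1 point per library. Myofibroblast markers sum to 178 to 333 CPM in NASH GFP livers and to 114 to 115 CPM in Activin A livers.

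Over the 15 libraries and 11834 genes, the genes most like each member in log2 CPM were read as a description, since the points share the group structure. Lum was most like Dpt (Pearson r = 0.960) and Mmp2 (0.956), Bgn most like Timp2 (0.975) and App (0.960), and Dcn most like Anxa7 (0.961) and Cxcr4 (0.954). Fbn1 was most like Ppfia4 (0.971) and Sh3pxd2b (0.960), Eln most like Scube1 (0.960) and Phlda3 (0.951), and Postn most like Col14a1 (0.949) and Lrrc25 (0.946). Thbs2 was most like the inflammatory caspase gene Casp4 (0.976) and the complement receptor gene C3ar1 (0.963), and Thbs1 most like Arhgap25 (0.937) and Gpr137b-ps (0.929). Tgfbi was most like the integrin gene Itgb5 (0.941) and Ifi27l2b (0.938), and Fn1 most like Npc1 (0.942) and Ash1l (0.939). No member was among the 2 genes most like any other, since members were left out of this search.

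The authors' deposited tables, at an adjusted p under 0.05, called 9 of the 10 higher on the diet, 5 lower under Activin A, and 7 lower and 1 higher under the hairpin. In the authors' deposited table for Activin A, Fbn1 had an adjusted p of 0.0217. In the authors' deposited table for the hairpin, Bgn had an adjusted p of 0.0319 and Postn one of 0.0649. Bgn, Fbn1 and Postn are thus the genes whose calls differed between the authors' deposited tables and the edgeR test.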

How the data were processed

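Liver RNA of 15 samples had been made into stranded poly(A) libraries, per the labels' protocols. The authors deposited 3 tables, one per comparison. Per the file headers these hold whole-number counts per gene, not normalized, which entered every test, and the authors' normalized counts (a signal), FPKM, log2 fold changes and p-values. The build was GRCm38, per the submitters' processing notes; aligner, counter, strand setting, annotation: not given in the sources used here. NASH GFP counts, deposited in 2 tables, were identical for all 23148 shared genes.

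Genes were filtered with filterByExpr (minimum count 10), scaled by TMM (trimmed mean of M values) and compared in edgeR 4.0.16 (R 4.3.3) by its two-sided quasi-likelihood test, with Benjamini-Hochberg adjustment over all genes. The 3 deposited comparisons used their own 6 libraries and the others all 15. SE is the log2 fold change divided by the square root of F. CPM used TMM over 15 libraries (prior count 2 for log2 CPM). Alternatives were DESeq2 1.42.0, limma 3.58.1 voom, other scalings, no filter, a replicate block, other sets of libraries in the fit and leaving out each library. Scripts were tested on simulated data. The genes and lists were chosen with earlier results of these data known; named related genes had the smallest p in each direction, or moved against most of their list. A gene under this rule is not reported here.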

Additional observations from a re-analysis of the deposited data

How the results depend on the processing

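Calls on the diet, on scramble against chow and on Activin A against chow kept all their genes in every alternative. The difference between Activin A and hairpin effects gave 2 called genes with only its 4 groups in the fit and 0 otherwise. Leaving out 1 library at a time gave 9 to 9 called genes for the diet, 1 to 5 for Activin A, 4 to 8 for the hairpin, 0 to 1 between the NASH controls (1 without NASH GFP replicate 3), 9 to 9 for scramble, 5 to 6 for Activin A and 3 to 7 for the hairpin against chow, and 0 to 0 for the difference of effects. Dropping a library leaves a group of 2, and the test then has less power.

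Directions turned only for genes that were not called. Tgfbi between the NASH controls went to 0.000921 with DESeq2 size factors, 0.0436 with library size alone, 0.000854 with DESeq2, 0.0271 with no filter and 0.00441 with only its groups. Thbs1 there went to 0.0200 with library size alone and 0.00448 with no filter. With library size alone Fn1 went to 0.127 on the diet, -0.0505 under Activin A and 0.0758 for Activin A against chow.

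Leaving out 1 library, Fn1 ranged from -0.36 to 0.10 on the diet, -0.0644 to 0.0851 under Activin A, -0.37 to 0.11 for Activin A against chow and -0.13 to 0.34 for scramble against chow. Under Activin A, Dcn ranged from -0.21 to 0.0201 and Bgn from -0.29 to 0.0184. Between the NASH controls Thbs1 ranged from -0.26 to 0.15, Tgfbi from -0.10 to 0.10 and Bgn from -0.12 to 0.18. For the difference of effects Thbs1 ranged from -1.43 to 0.0466, Fbn1 from -0.183 to 0.200 and Eln from -0.0710 to 0.435.

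Same-numbered libraries correlated at -0.15 to 0.04 in their deviations from the group mean, and unlike-numbered ones at -0.12 to 0.21. Deviations within a group of 3 are tied to each other, so these values cannot exclude a pairing of samples. With the number as a replicate block, Thbs1 between the NASH controls was 0.0123, Eln under Activin A had an adjusted p of 0.0811, and in hairpin livers against chow Lum had 0.0637 and Fbn1 0.0498. The block left the number of genes called at 9 on the diet. Over all genes the block gave 1130 higher and 467 lower calls on the diet, against 1607 and 838; DESeq2 gave 389 and 869 under Activin A, and no filter 372 and 881, against 242 and 564.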
